A study of Mus musculus with 16 samples.

Results

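The genes described here encode the nuclear subunits of mitochondrial complex I and the assembly factors that share their gene name. Every row of the expression matrix whose gene symbol begins with Nduf was taken, which gave 47 of 17883 genes. Of these, 37 encode subunits of the complex, 8 encode assembly factors (the Ndufaf genes, reported apart), and 2, Ndufa4 and Ndufa4l2, carry the name but are not subunits of complex I. The subunits fall into 7 core subunits, 9 accessory subunits of the matrix arm, 9 of the proximal membrane arm, 11 of the distal membrane arm (the Ndufb genes) and the acyl carrier protein Ndufab1. The row Ndufb1-ps is named as a pseudogene in the matrix and was counted with the Ndufb genes. How reads shared between near-identical copies were assigned is not given in the sources used here, so its values are uncertain.

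Complex I takes electrons from NADH, passes them along a chain of iron-sulfur clusters to ubiquinone and pumps protons across the inner mitochondrial membrane. Its matrix arm binds NADH and ubiquinone, and its membrane arm holds the proton-pumping subunits, which are encoded by mitochondrial DNA and named mt-Nd. Brown and beige fat cells are rich in mitochondria, and the heat they release through the uncoupling protein Ucp1 draws on electrons that enter the respiratory chain in part through complex I.

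The study measured RNA in adipose tissue of C57BL/6 mice aged 8 weeks, and its title and design concern the part of METTL3, the catalytic subunit of the m6A methyltransferase, in the beiging of white fat. The 16 libraries, in 8 groups of 2, hold total RNA (input), RNA pulled down by an antibody to methylated adenosine (m6A) or fragments protected by ribosomes (footprints). WT RT are untreated METTL3 flox/flox mice, WT cold are METTL3 flox/flox mice housed singly at 4 °C for 7 days, and cKO cold are METTL3 flox/flox Adipoq-Cre +/- mice in the same cold. Footprints came from the 2 cold groups alone. All mice carried the floxed allele, and Adipoq-Cre acts in adipocytes, so other cells of the tissue keep Mettl3. Nothing in the labels ties replicates to separate animals, and p-values here measure the spread between libraries, which may be technical. The library codes of WT RT come from a different series than those of both cold groups, and the effects of temperature and of that series cannot be told apart. Both cold groups share 1 code series.

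Mettl3 itself stood at 10.8 and 9.27 RPKM (reads scaled by transcript length and library depth) in input RNA of WT RT, at 5.24 and 3.66 in that of WT cold, and at 3.83 and 1.90 in that of cKO cold. The cKO cold libraries did not differ from WT cold past the threshold of 0.05 in input (log2 change -0.53 ± 0.30, adjusted p = 0.215) or in footprints (0.47 ± 0.37, adjusted p = 0.411). Against WT RT, Mettl3 was lower in the inputs of both WT cold (-1.03 ± 0.30, adjusted p = 0.0231) and cKO cold (-1.55 ± 0.30, adjusted p = 0.0091). Neither call was kept without WT RT replicate 1 or without WT RT replicate 2, and the WT cold call was also lost without WT cold replicate 2 and with each of the 3 other scalings. The libraries called cKO below are those labelled so. Markers of other cells also differed between the groups before any complex I gene is considered. The 10 T and B cell markers summed in input RNA to 753 and 689 RPKM (WT RT), 1.06 and 1.29 (WT cold) and 7.90 and 7.95 (cKO cold), and 4 and 6 of them were at 0 in the WT cold libraries. Skeletal muscle markers summed to 307 RPKM in WT RT replicate 1 and 175 in cKO cold replicate 2, against 0.775 to 11.3 in the other 4 inputs. Recovered reads ran from 3895031 to 8673393 in the inputs and from 4883129 to 6426541 in the m6A libraries, and were at least 1676208 in each footprint library.

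The 36 subunit genes with a position in the RefSeq table (GRCm38.p6, the build named mm10 by the submitters) were spread over 15 chromosomes, and 2, Ndufa1 and Ndufb11, are on the X chromosome. Of the core genes, Ndufs1 is at chr1:63143592-63176822, Ndufs3 at chr2:90894627-90904721 and Ndufs7 at chr10:80249105-80256794. Ndufv2 lies at chr17:66078795-66101559, and Ndufs8 (chr19:3908863-3912774) and Ndufv1 (chr19:4007499-4012755) lie close to each other on 1 chromosome.

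Because most of these genes moved together in input RNA, their reference promoters were searched for the letters of 5 motifs tied to mitochondrial or cAMP-responsive genes, on both strands. RefSeq promoters of GRCm38.p6 (300 bases, of which 250 lie before the start and 50 after it) matched 40 of the 47 rows and 32 of the 37 subunits. AAGATGGCG, a YY1 motif, was found in a promoter of 5 of 32 subunits (15.6%), of 3.47% of 10048 tested genes and of 1.64% of all 27025 genes. In these 5 subunits the match lay on the strand of the gene, and began at positions 23 to 36 counting the start as 1. The assembly factor Ndufaf8, whose RNA fell in the cold, also held the letters on the strand of the gene, from position 11. The 5 matches in subunits are shown here as 30-base stretches with the motif in capitals. The bases before the motif differ between them. The letters contain ATG, and whether it is the start codon was not examined.
Ndufs7 (core, chr10:80249463-80249492, plus strand): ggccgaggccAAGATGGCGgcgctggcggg
Ndufs4 (matrix arm, chr13:114388045-114388074, minus strand): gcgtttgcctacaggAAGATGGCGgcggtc
Ndufs6 (matrix arm, chr13:73328433-73328462, minus strand): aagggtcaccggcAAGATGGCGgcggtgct
Ndufa9 (matrix arm, chr6:126849096-126849125, minus strand): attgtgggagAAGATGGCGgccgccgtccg
Ndufc1 (proximal membrane arm, chr3:51408914-51408943, minus strand): cctgcggaacAAGATGGCGccgtccgtagt

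TGACGTCA, the cAMP response element bound by CREB, was found in a promoter of 3 of 32 subunits (9.38%), namely Ndufa10, Ndufa11 and Ndufb2. It was found in a promoter of 3.40% of tested genes and of 2.03% of all genes. In wild-type input RNA Ndufa10 rose in the cold, while Ndufa11 and Ndufb2 did not pass the test. Any link between a motif and the changes was not tested. GCGCATGCG, a core of the NRF1 motif, was found in 2 (6.25%; Ndufa8 and Ndufa11) against 3.99% of tested genes, and CCGGAAG, an ETS motif that GABPA binds, in 4 (12.5%; Ndufb6, Ndufb7, Ndufs3 and Ndufs8) against 19.5%. TCAAGGTCA, a motif of the estrogen-related receptors, was found in 0 of 32 against 0.299%. The 200 bases before the start are shown for 3 subunits and for Ndufaf4, the assembly factor with the highest change between cKO cold and WT RT, with CREB and NRF1 letters in capitals. In Ndufa11 and Ndufaf4 the NRF1 letters match on both strands and overlap.
Ndufb2 (chr6:39592365-39592564, plus strand): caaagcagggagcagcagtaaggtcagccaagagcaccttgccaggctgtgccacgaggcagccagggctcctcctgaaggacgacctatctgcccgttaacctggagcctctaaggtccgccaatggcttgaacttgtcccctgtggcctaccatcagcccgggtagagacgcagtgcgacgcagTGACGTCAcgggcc
Ndufa11 (chr17:56717562-56717761, plus strand): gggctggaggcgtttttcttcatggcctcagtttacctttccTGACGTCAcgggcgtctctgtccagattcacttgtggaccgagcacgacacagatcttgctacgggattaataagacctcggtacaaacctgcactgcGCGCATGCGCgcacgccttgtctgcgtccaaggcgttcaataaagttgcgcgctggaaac
Ndufa8 (chr2:36049339-36049538, minus strand): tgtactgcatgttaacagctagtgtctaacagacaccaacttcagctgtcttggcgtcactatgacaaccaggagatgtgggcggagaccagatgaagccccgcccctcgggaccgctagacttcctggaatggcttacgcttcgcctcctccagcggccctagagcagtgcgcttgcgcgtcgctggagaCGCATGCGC
Ndufaf4 (chr4:24897883-24898082, plus strand): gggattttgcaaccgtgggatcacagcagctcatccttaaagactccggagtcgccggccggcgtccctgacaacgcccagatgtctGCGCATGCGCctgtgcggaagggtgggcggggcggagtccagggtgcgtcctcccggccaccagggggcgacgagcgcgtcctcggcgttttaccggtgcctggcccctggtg

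Complex I subunit RNA was more abundant in cold wild-type fat than in warm wild-type fat. In cold knockout fat its sums lay between these, nearer to the warm ones. The RPKM of the 37 subunits summed to 1924.5 and 2066 in warm wild-type inputs, to 3738 and 3587 in cold wild-type inputs, and to 2255 and 2460.3 in cold knockout inputs. As a share of the recovered reads this was 0.183% and 0.198%, then 0.367% and 0.355%, then 0.212% and 0.232%. Both WT cold sums lay above the other 4, and both cKO cold sums lay above both WT RT sums. The core subunits summed to 419 and 444 RPKM (WT RT), 801 and 827 (WT cold) and 446 and 468 (cKO cold). RNA of the 8 Ndufaf genes was far scarcer, at 48.7 and 48.3 RPKM in sum (WT RT), 62.4 and 57.4 (WT cold) and 59.2 and 74.9 (cKO cold), and its cKO cold sums did not lie below those of WT cold as a group.

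**Figure D1:**
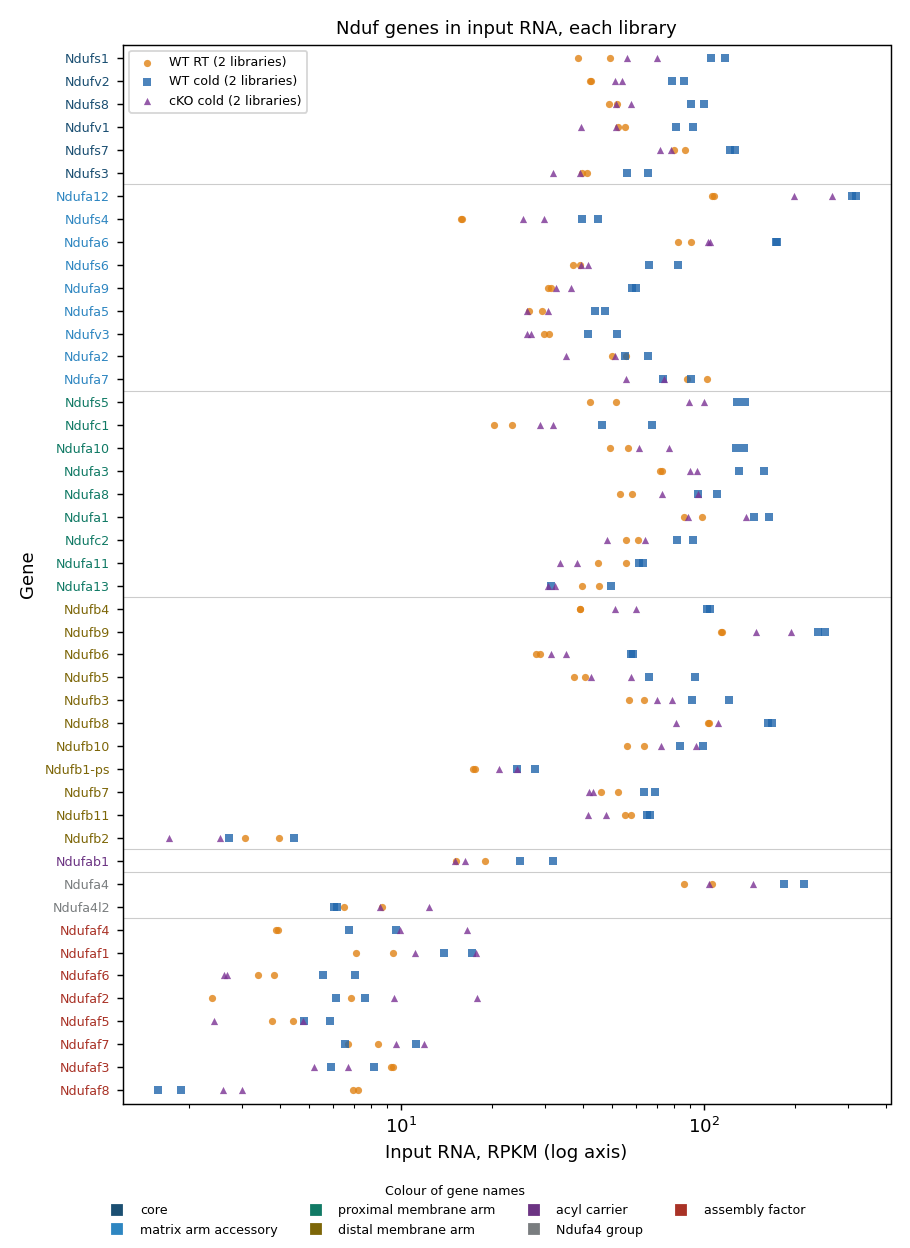
Input RNA of 46 of the 47 Nduf genes in each of the 6 input libraries, as RPKM on a log axis, with genes grouped by role and 2 points per condition. For most subunits the blue WT cold squares lie to the right of the other 4 points, while the assembly factors at the bottom lie mostly below 20 RPKM and share no such order.

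Among the subunits with high input RNA in WT RT was Ndufb9, which carries the fold that binds the acyl carrier protein, at 114 and 115 RPKM. Ndufb2 stood lowest in every input group, at 3.07 and 3.96 RPKM (WT RT), 4.43 and 2.72 (WT cold) and 1.72 and 2.53 (cKO cold). Its transcript in the matrix, recovered from the values, is 4371 bases long, the longest of the 37 subunits, against a median of 875 bases over the subunits. In the footprint libraries, whose values are on another length scale, Ndufb2 stood at 573 to 1064 RPKM, among values of the other subunits of 60.6 to 1603.

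In the cold, 31 of 37 subunits rose in wild-type input RNA and 0 fell, among 12667 genes tested of which 6.52% rose and 51.2% fell (limma on log2(RPKM + 1), Benjamini-Hochberg adjusted p under 0.05). The median log2 change of the subunits was 0.80, against -0.67 over all genes tested. In 33 of 37 subunits both WT cold libraries lay above both WT RT libraries, which held for 12.4% of all genes tested (37 of 37 and 35.5% with median-ratio scaling between libraries). All 7 core subunits rose, as did 7 of 9 in the matrix arm, 7 of 9 in the proximal membrane arm, 9 of 11 in the distal membrane arm and Ndufab1.

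Of the core subunits, Ndufs1, the largest, which carries iron-sulfur clusters, had the highest change. Its input RNA was 38.5 and 49.2 RPKM in the warm libraries against 106 and 118 in the cold ones, with no overlap, a log2 change of 1.34 ± 0.17 (adjusted p = 0.00105). Ndufv2, an iron-sulfur subunit next to the NADH site, went from 42.4 and 42.0 to 86.0 and 78.5 RPKM (0.94 ± 0.12), and Ndufs8, which carries iron-sulfur clusters near ubiquinone, from 51.6 and 48.8 to 91.0 and 99.9 RPKM (0.91 ± 0.13). Changes were smaller for Ndufv1, which binds NADH and flavin (0.68 ± 0.16), Ndufs7 of the ubiquinone site (0.57 ± 0.12) and Ndufs3 (0.57 ± 0.15, adjusted p = 0.0168). These 6 core changes ran from 0.57 to 1.34. None of the 6 overlapped between the groups, and 12.4% of genes lay higher in the same way (35.5% with median-ratio scaling).

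Accessory subunits showed a wider spread. Ndufa12, a matrix arm subunit that takes the place of the assembly factor Ndufaf2 late in assembly, had 106 and 108 RPKM in the warm libraries and 317 and 307 in the cold ones. This was the highest change of all 47 genes (1.53 ± 0.15, adjusted p = 0.00042). In the proximal membrane arm Ndufs5, a disulfide-bonded subunit facing the intermembrane space, rose most, from 42.1 and 51.5 to 137 and 129 RPKM (1.49 ± 0.14). Ndufb4 rose most in the distal arm, from 38.9 and 39.1 to 103 and 105 RPKM (1.39 ± 0.13). Ndufab1, the acyl carrier protein that docks on the complex through Ndufa6 and Ndufb9, went from 15.2 and 18.9 to 31.8 and 24.8 RPKM (0.69 ± 0.18, adjusted p = 0.0164). Ndufs4, whose loss in mice is a model of Leigh syndrome, went from 15.8 and 15.9 to 39.6 and 45.0 RPKM (1.36 ± 0.15).

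The 6 subunits that did not pass the test in the cold were Ndufa2, Ndufa7, Ndufa11, Ndufa13, Ndufb2 and Ndufb11. Lowest was Ndufa7, at 88.0 and 103 RPKM in WT RT and 73.4 and 91.0 in WT cold (-0.22 ± 0.19, adjusted p = 0.347). Ndufa13, also known as GRIM-19, was 39.7 and 45.0 RPKM in the warm libraries against 49.3 and 31.2 in the cold ones (-0.10 ± 0.22). With median-ratio scaling between libraries its change was 0.63 ± 0.19 (adjusted p = 0.0401, range over alternatives 0.0401 to 0.97), so that its direction depends on the scaling. Ndufb2 changed by 0.00 ± 0.27.

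Among the 8 Ndufaf genes, 3 rose in the cold and 1 fell, with a median of 0.46. Of all genes tested 6.52% rose and 51.2% fell, with a median of -0.67. Ndufaf4, which works with Ndufaf3 on the ubiquinone-binding part, had 3.87 and 3.94 RPKM in the warm libraries and 9.68 and 6.74 in the cold ones (0.89 ± 0.28, adjusted p = 0.0307). Ndufaf1, of the complex that builds the membrane arm with Ecsit and Acad9, rose by 0.84 ± 0.26, and Ndufaf6 by 0.66 ± 0.21 (adjusted p = 0.0276 and 0.0311). Ndufaf8, the partner of Ndufaf5, ran the other way. It had 7.25 and 6.96 RPKM in the warm libraries and 1.89 and 1.58 in the cold ones, on 24 and 22 against 7 and 3 reads, a change of -1.57 ± 0.20 (adjusted p = 0.000966). Ndufaf2 (0.60 ± 0.44), Ndufaf5 (0.31 ± 0.29), Ndufaf7 (0.17 ± 0.27) and Ndufaf3 (-0.39 ± 0.22) did not pass. Ndufa4, a subunit of complex IV despite its name, rose from 86.1 and 107 to 185 and 214 RPKM (1.04 ± 0.20), whereas Ndufa4l2, its hypoxia-induced relative, stood at 8.71 and 6.51 and at 6.17 and 6.01 RPKM (-0.27 ± 0.23, adjusted p = 0.355).

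The other genes of the complex were read from lists. All 6 mt-Nd subunits of the matrix rose, with a median of 1.41, from mt-Nd3 (1.03 ± 0.16) to mt-Nd2 (1.74 ± 0.23). They summed to 21294.5 and 21625 RPKM in WT RT and 61097 and 52618 in WT cold. mt-Nd4 is not analysed here. Of 12 assembly factors without an Nduf name, 3 rose and 1 fell, with Tmem126a highest (1.01 ± 0.26) and Dmac2 lowest (-0.80 ± 0.24).

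Leaving out libraries lowered the count of subunits that rose in the cold to 18 without WT RT replicate 1, 22 without WT RT replicate 2, 26 without WT cold replicate 1 and 29 without WT cold replicate 2. A total of 18 subunits kept the call without each library in turn, among them Ndufs1, Ndufs8, Ndufv2, Ndufa12, Ndufs4, Ndufs5 and Ndufb4. The 13 that lost it were Ndufa1, Ndufa5, Ndufab1, Ndufb1-ps, Ndufb3, Ndufb7, Ndufb8, Ndufb10, Ndufc2, Ndufs3, Ndufs7, Ndufv1 and Ndufv3. The rises of Ndufaf1, Ndufaf4 and Ndufaf6 were each lost without either WT RT library and without 1 of the WT cold libraries (replicate 1 for Ndufaf4, replicate 2 for the others), and the fall of Ndufaf8 was kept. With median-ratio scaling, which moved the median of all genes from -0.67 to -0.05 and their calls from 826 higher and 6488 lower to 2392 and 2532, 35 subunits rose, with a median of 1.54. Quantile scaling gave 2652 higher and 2357 lower genes, and 34 subunits rose.

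Cell markers moved in the same comparison. The 7 beige and brown adipocyte markers all rose, summing to 131 and 193 RPKM in WT RT and 1690.3 and 1391 in WT cold, and of 9 adipocyte markers 4 rose and 1 fell (9087 and 9266 against 12746.5 and 13184 RPKM). Of 9 tested macrophage markers 6 fell (678 and 767 against 140.3 and 129 RPKM), and all 10 T and B cell markers fell. Of 7 fibroblast markers 3 fell (1549 and 1536 against 513 and 353). Among all genes tested 51.2% fell and 6.52% rose, so the count of fibroblast markers does not stand out. The part of these shifts in the subunits' change was not tested. In bulk tissue, fewer cells of a type and less RNA per cell cannot be told apart.

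**Figure D2:**
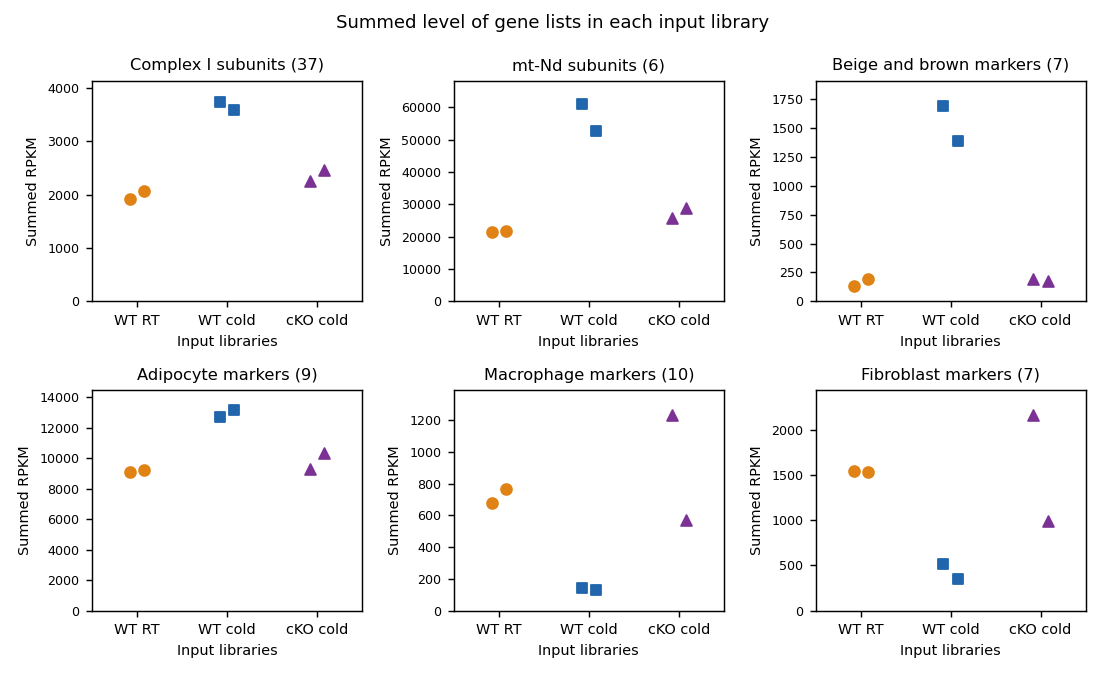
Summed RPKM of 6 gene lists in each of the 6 input libraries, 1 point per library, with linear axes that start at 0. Complex I subunits, mt-Nd subunits and beige markers are highest in both WT cold libraries, where macrophage and fibroblast markers are lowest.

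In the cold, complex I subunits were lower in knockout than in wild-type input RNA. Of 37 subunits, 26 fell and 0 rose, with a median log2 change of -0.66, among all genes of which 2.92% fell and 23.6% rose, with a median of 0.40. In 34 of 37 subunits both cKO cold libraries lay below both WT cold libraries, against 8.67% of all genes (37 of 37 and 27.9% with median-ratio scaling). All 7 core subunits fell, as did 6 of 9 in the matrix arm, 6 of 9 in the proximal membrane arm, 6 of 11 in the distal membrane arm and Ndufab1. This comparison shares the WT cold libraries with the cold response, so a high value there enters both.

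Ndufv1 stood at 39.5 and 51.3 RPKM in cKO cold against 80.9 and 92.0 in WT cold (-0.92 ± 0.16, adjusted p = 0.0107), below the WT RT values of 52.0 and 55.1. Other core changes were -0.83 ± 0.17 for Ndufs1, -0.80 ± 0.13 for Ndufs8, -0.76 ± 0.15 for Ndufs3, -0.72 ± 0.12 for Ndufs7 and -0.64 ± 0.12 for Ndufv2. None of these 6 core subunits overlapped between the groups, and 8.67% of genes lay lower in the same way (27.9% with median-ratio scaling). The 6 changes lay within a narrow range.

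Across the accessory subunits, Ndufa10, a membrane arm subunit related to nucleoside kinases, stood at 61.2 and 77.0 RPKM in cKO cold against 128 and 136 in WT cold (-0.93 ± 0.15). Ndufb4 fell to 51.1 and 59.7 RPKM (-0.90 ± 0.13), Ndufs6, which binds zinc, to 39.4 and 41.6 (-0.84 ± 0.14), and Ndufab1 to 16.2 and 15.1 (-0.80 ± 0.18, adjusted p = 0.0228). The members nearest to 0 in their arms did not pass. They were Ndufa7 (-0.35 ± 0.19), Ndufa8 (-0.30 ± 0.17) and Ndufb10, which stood at 72.1 and 94.3 RPKM against 99.7 and 83.4 and overlapped between the groups (-0.14 ± 0.17, adjusted p = 0.547). Ndufa12, which rose most in the cold, stood at 199 and 265 RPKM in cKO cold (-0.44 ± 0.15, adjusted p = 0.0755).

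Assembly factors had no common direction in the knockout. Ndufaf6 fell, from 5.54 and 7.05 to 2.66 and 2.61 RPKM (-0.997 ± 0.21, adjusted p = 0.0178). The other 7 did not pass, with Ndufaf2 highest at 9.48 and 17.8 RPKM against 6.12 and 7.62 (0.84 ± 0.44, adjusted p = 0.187), and the median of the 8 was 0.08. Ndufaf4 (0.61 ± 0.28), Ndufaf8 (0.48 ± 0.20), Ndufaf7 (0.29 ± 0.27), Ndufaf1 (-0.13 ± 0.26), Ndufaf3 (-0.20 ± 0.22) and Ndufaf5 (-0.51 ± 0.29) lay between. With median-ratio scaling the median of the 8 was -0.38 and Ndufaf6 alone passed. Ndufa4 fell to 145 and 104 RPKM (-0.69 ± 0.20, adjusted p = 0.0422), and Ndufa4l2 stood at 8.54 and 12.4 (0.67 ± 0.23, adjusted p = 0.0731). All 6 mt-Nd subunits fell, from mt-Nd6 (-1.59 ± 0.17) to mt-Nd1 (-0.90 ± 0.22), to sums of 25636 and 28816 RPKM. Of the 12 other assembly factors 0 passed in either direction, and they ran from Foxred1 (-0.47 ± 0.23) to Nubpl (0.24 ± 0.29).

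Without 1 library at a time, 18 to 22 subunits fell in the knockout, and 14 kept the call throughout, among them Ndufs3, Ndufs7, Ndufs8, Ndufv1, Ndufv2, Ndufa6, Ndufa9, Ndufs6, Ndufv3, Ndufa10, Ndufa11, Ndufb4 and Ndufb6. Without cKO cold replicate 1 the calls of Ndufs1, Ndufs4, Ndufs5, Ndufa3, Ndufab1, Ndufb7, Ndufb9, Ndufb11 and Ndufc1 were lost, and without cKO cold replicate 2 those of Ndufa3, Ndufa5, Ndufab1, Ndufc1, Ndufc2 and Ndufs5. Without WT cold replicate 1 those of Ndufab1, Ndufb9, Ndufc2 and Ndufs5 were lost, and without WT cold replicate 2 those of Ndufs1, Ndufs4, Ndufs5, Ndufb7, Ndufb8, Ndufb9, Ndufb11 and Ndufc2. Ndufaf6 lost its call without cKO cold replicate 1 and without WT cold replicate 2, and Ndufa4 without cKO cold replicate 2 or either WT cold library. Median-ratio scaling moved the median of all genes to 0.01 and their calls from 2992 higher and 370 lower to 764 and 872 (752 and 638 with quantile scaling), and 35 subunits fell with it. In the same comparison all 7 beige and brown markers fell (193 and 177 RPKM in cKO cold), 8 of 9 tested macrophage markers rose (1229 and 568 RPKM in sum) and all 7 fibroblast markers rose (2165 and 989.7). Of 9 adipocyte markers, 3 fell and 1 rose (9273 and 10344 RPKM). The part of these shifts in the subunits' change was not tested.

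**Figure D3:**
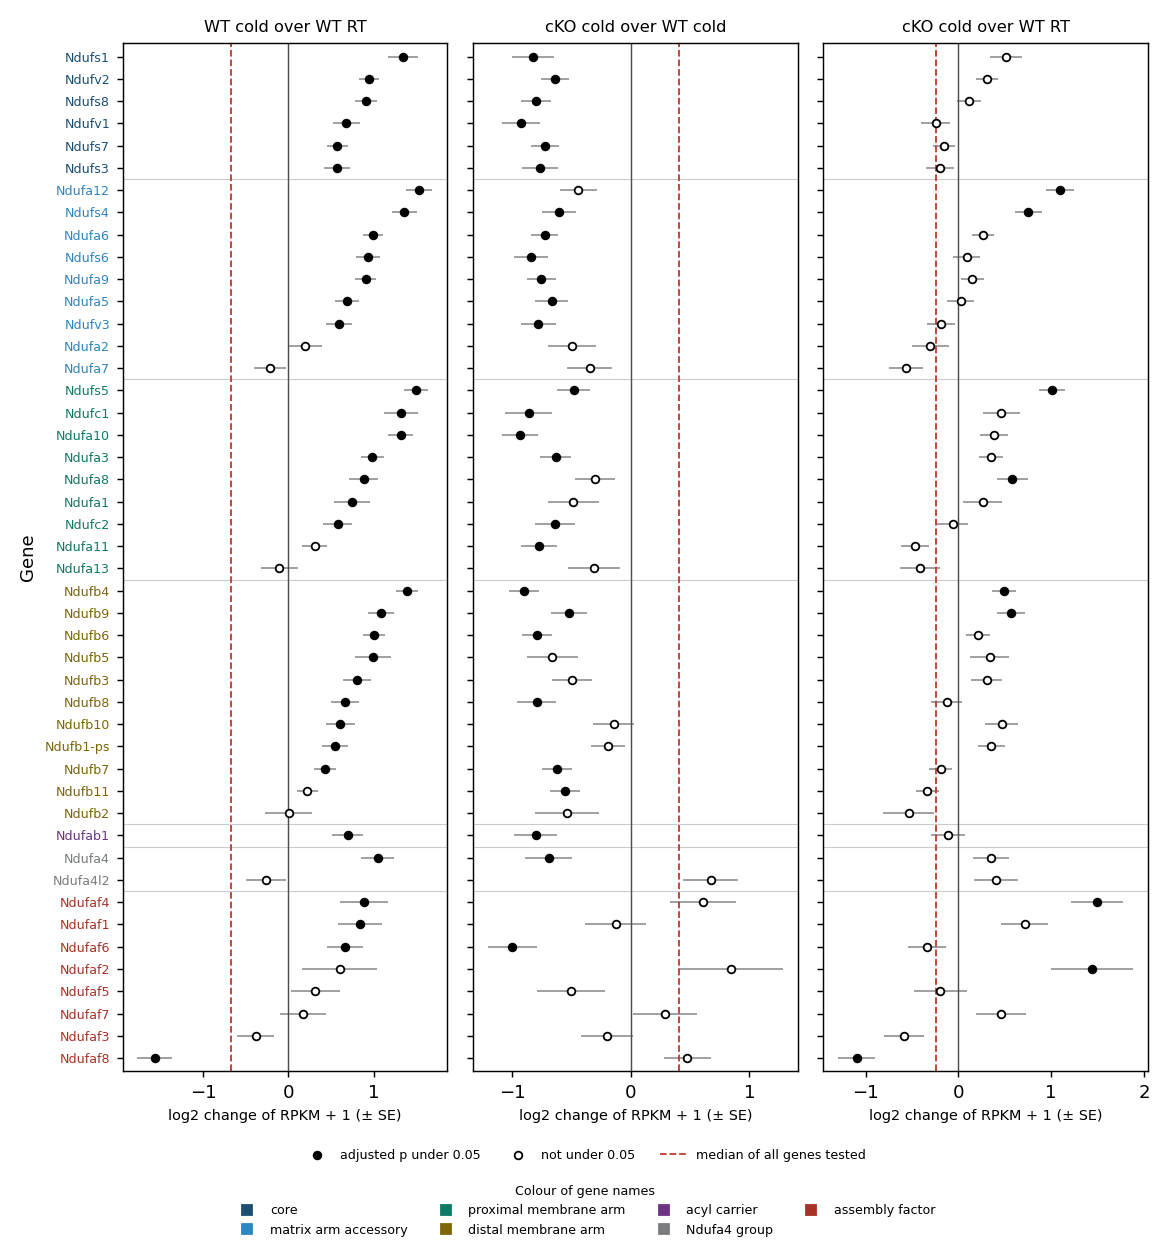
Log2 change of RPKM + 1 in input RNA for 46 of the 47 Nduf genes in 3 comparisons, with standard errors as bars and filled points for an adjusted p under 0.05. Most subunits lie right of 0 for WT cold over WT RT, all subunits shown lie left of 0 for cKO cold over WT cold, and they scatter about 0 for cKO cold over WT RT. The dashed line is the median of all genes tested.

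Set directly against warm wild-type fat, the cold knockout tissue had 6 subunits that rose and 0 that fell, among 8.38% of all genes that rose and 24.7% that fell. The median change of the subunits was 0.15, against -0.24 over all genes. The 6 were Ndufa12 (1.09 ± 0.15, adjusted p = 0.00304), Ndufs5 (1.01 ± 0.14, adjusted p = 0.00293), Ndufs4, Ndufa8, Ndufb9 and Ndufb4, and of the core subunits 0 passed, with Ndufs1 highest (0.51 ± 0.17, adjusted p = 0.0623) and Ndufv1 lowest (-0.24 ± 0.16). Ndufa7 was lowest of all subunits (-0.57 ± 0.19, adjusted p = 0.0572), at 73.9 and 55.4 RPKM against 88.0 and 103. In 20 subunits both cKO cold libraries lay above both WT RT libraries and in 10 both lay below, against 23.6% and 50.8% of all genes. With median-ratio scaling 23 lay above and 1 below, against 35% and 38.3% of all genes, so that the 10 below depend on the scaling.

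Among the assembly factors, Ndufaf4 was higher in cKO cold than in WT RT, at 9.95 and 16.5 against 3.87 and 3.94 RPKM (1.497 ± 0.28, adjusted p = 0.00833). Ndufaf2 was also higher (1.44 ± 0.44, adjusted p = 0.0448), though its WT RT libraries stood apart at 6.85 and 2.39 RPKM. Ndufaf8 was lower, at 2.60 and 3.01 against 7.25 and 6.96 RPKM (-1.09 ± 0.20). One of the 6 mt-Nd subunits, mt-Nd2, passed (0.74 ± 0.23, adjusted p = 0.0484), with mt-Nd3 lowest (-0.18 ± 0.16), and 2 of 12 other assembly factors rose, Tmem70 highest (0.69 ± 0.13) with Dmac2 lowest (-0.74 ± 0.24). Ndufa12 and Ndufs5 were the 2 subunits that kept the call without each library. The count was 2 without either WT RT library, 3 without cKO cold replicate 2, and 11 (10 higher, 1 lower) without cKO cold replicate 1. Ndufaf4 and Ndufaf8 lost theirs without either WT RT library, and Ndufaf2 without WT RT replicate 2 or cKO cold replicate 2. Median-ratio scaling moved the median of all genes to -0.02 and their calls from 1062 higher and 3130 lower to 1682 and 1924 (2073 and 2000 with quantile scaling), and 16 subunits were then higher. Of the cell markers, all 10 T and B cell markers were lower in cKO cold than in WT RT, 4 of 9 tested macrophage markers were higher, and 3 of 7 beige and brown markers were higher and 1 lower, and their part in the result was not tested. Temperature, genotype and code series all differ here and cannot be told apart.

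The antibody captured most complex I mRNAs less than other mRNAs. m6A over input is given as the log2 difference of RPKM + 1 between m6A and input libraries of 1 condition, and it shows relative capture, not the number of methyl groups. In WT RT, 29 of 37 subunits were lower in m6A than in input and 3 were higher, among 13062 genes of which 34.6% were lower and 16% higher. In WT cold 25 were lower and 3 higher (25.6% and 13.7% of all genes), and in cKO cold again 25 and 3 (35.2% and 11.4%). The medians of the subunits were -0.998, -0.85 and -0.76, against -0.25, -0.11 and -0.30 over all genes.

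All 7 core subunits were lower in m6A than in input in each condition, with Ndufs1 lowest. Ndufs1 had 7.61 and 8.23 RPKM in WT RT m6A libraries, against 38.5 and 49.2 in input (-2.32 ± 0.16). In WT cold it stood at 28.2 and 32.0 RPKM against 106 and 118 (-1.86 ± 0.16), and in cKO cold at 16.6 and 14.7 against 55.8 and 70.1 (-1.94 ± 0.16). The core subunit nearest to 0 was Ndufs3 in WT RT (-1.24 ± 0.16), Ndufv2 in WT cold (-0.64 ± 0.14) and Ndufs8 in cKO cold (-0.62 ± 0.15). Ndufs7 and Ndufv1 lay between these limits in WT RT, at -1.26 ± 0.16 and -1.29 ± 0.15.

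Of the accessory subunits, Ndufc1 was lowest in WT RT at 2.24 and 2.95 RPKM in m6A against 20.3 and 23.4 in input (-2.67 ± 0.20), and was lowest in cKO cold (-2.33 ± 0.20). Ndufb5 stood at 4.21 and 6.64 RPKM in m6A against 40.7 and 37.2 in input in WT RT (-2.66 ± 0.22), and was lowest in WT cold (-2.40 ± 0.22). In the matrix arm the lowest were Ndufa6 in WT RT (-2.26 ± 0.16) and Ndufa9 in both cold groups (-1.59 ± 0.13 and -1.74 ± 0.13). Ndufab1 was also lower in m6A in all 3 conditions, at -0.76 ± 0.17, -0.90 ± 0.17 and -0.63 ± 0.17.

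The same 3 subunits were higher in m6A than in input in every condition: Ndufv3, a small matrix arm subunit, and Ndufb7 and Ndufb10, both disulfide-bonded subunits of the distal arm. Ndufv3 had 61.7 and 61.3 RPKM in WT RT m6A libraries against 29.8 and 30.9 in input, 126 and 100.2 against 51.7 and 41.4 in WT cold, and 45.0 and 47.4 against 26.9 and 26.1 in cKO cold. Its m6A libraries lay above its inputs in each condition, with log2 values of 1.00 ± 0.14, 1.26 ± 0.14 and 0.78 ± 0.14. Ndufb10 was at 0.65 ± 0.17, 1.01 ± 0.17 and 0.65 ± 0.17, and Ndufb7 at 0.60 ± 0.14, 0.66 ± 0.14 and 0.81 ± 0.14. In the proximal arm the highest were Ndufa8 in WT RT (-0.02 ± 0.18) and cKO cold (0.17 ± 0.18) and Ndufa13 in WT cold (0.31 ± 0.19), none of which passed.

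Among the Ndufaf genes, Ndufaf2 was higher in m6A in all 3 conditions, at 15.97 and 10.9 RPKM in m6A against 6.85 and 2.39 in input in WT RT (1.46 ± 0.38), with 1.95 ± 0.38 in WT cold and 1.28 ± 0.38 in cKO cold. Lower in m6A were 5 of 8 (WT RT), 4 (WT cold) and 6 (cKO cold), where 34.6%, 25.6% and 35.2% of all genes were lower. Leaving out 1 library lowered these counts to as few as 2 in each condition, a fit of all 16 libraries gave 4, 4 and 2, and the fit with library pairs as blocks gave 6, 5 and 7. Ndufaf6 was lowest in WT RT and WT cold (-1.36 ± 0.18 and -1.84 ± 0.18) and Ndufaf7 in cKO cold (-1.49 ± 0.25). Ndufaf3, whose product joins Ndufaf4, was lower in all 3, at -1.25 ± 0.28, -1.08 ± 0.28 and -0.93 ± 0.28. Its WT cold call was lost without input replicate 1, and its cKO cold call without m6A replicate 1 or input replicate 1. Ndufaf1 stood at 0.45 ± 0.21, 0.25 ± 0.21 and -0.64 ± 0.21, of which the last passed (adjusted p = 0.0281) and was lost without either m6A library or input replicate 2 of cKO cold. Ndufa4 was at -2.48 ± 0.25, -2.29 ± 0.25 and -2.67 ± 0.25, among the lowest of the 47, while Ndufa4l2 did not pass in any condition (-0.23 to -0.36).

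Without 1 library at a time, 27 of the 32 subunits called in WT RT kept the call (lost: Ndufa10, Ndufa13, Ndufb10, Ndufb2 and Ndufs6), as did 26 of 28 in WT cold (lost: Ndufa2 and Ndufa7) and 25 of 28 in cKO cold (lost: Ndufa2, Ndufab1 and Ndufb10). Of the Ndufaf calls, 2 of 6 were kept in WT RT (Ndufaf3 and Ndufaf6), 3 of 5 in WT cold (Ndufaf2, Ndufaf5 and Ndufaf6) and 2 of 7 in cKO cold (Ndufaf6 and Ndufaf7). The call of Ndufaf2 was lost without WT RT m6A replicate 1 or input replicate 2, and in cKO cold without m6A replicate 2 or input replicate 1. With the library pairs as blocks Ndufa12 was higher in m6A in WT RT (0.40 ± 0.07, adjusted p = 0.00134, range over alternatives 0.00134 to 0.219) and lower in cKO cold (-0.41 ± 0.07, adjusted p = 0.00125, range 0.00125 to 0.501). The subunits' transcripts are short, from 351 to 4371 bases with a median of 875, against 2951 over all genes. Of the subunits, 28 are under 1500 bases, with medians of m6A over input of -0.998, -0.85 and -0.74 in WT RT, WT cold and cKO cold. The 2121 genes of all kinds under 1500 bases had medians of -0.46, -0.26 and -0.48. Across the 37 subunits log2 length and m6A over input correlated at Pearson's r of -0.16, -0.06 and 0.02, as a description over genes that share the same libraries.

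**Figure D4:**
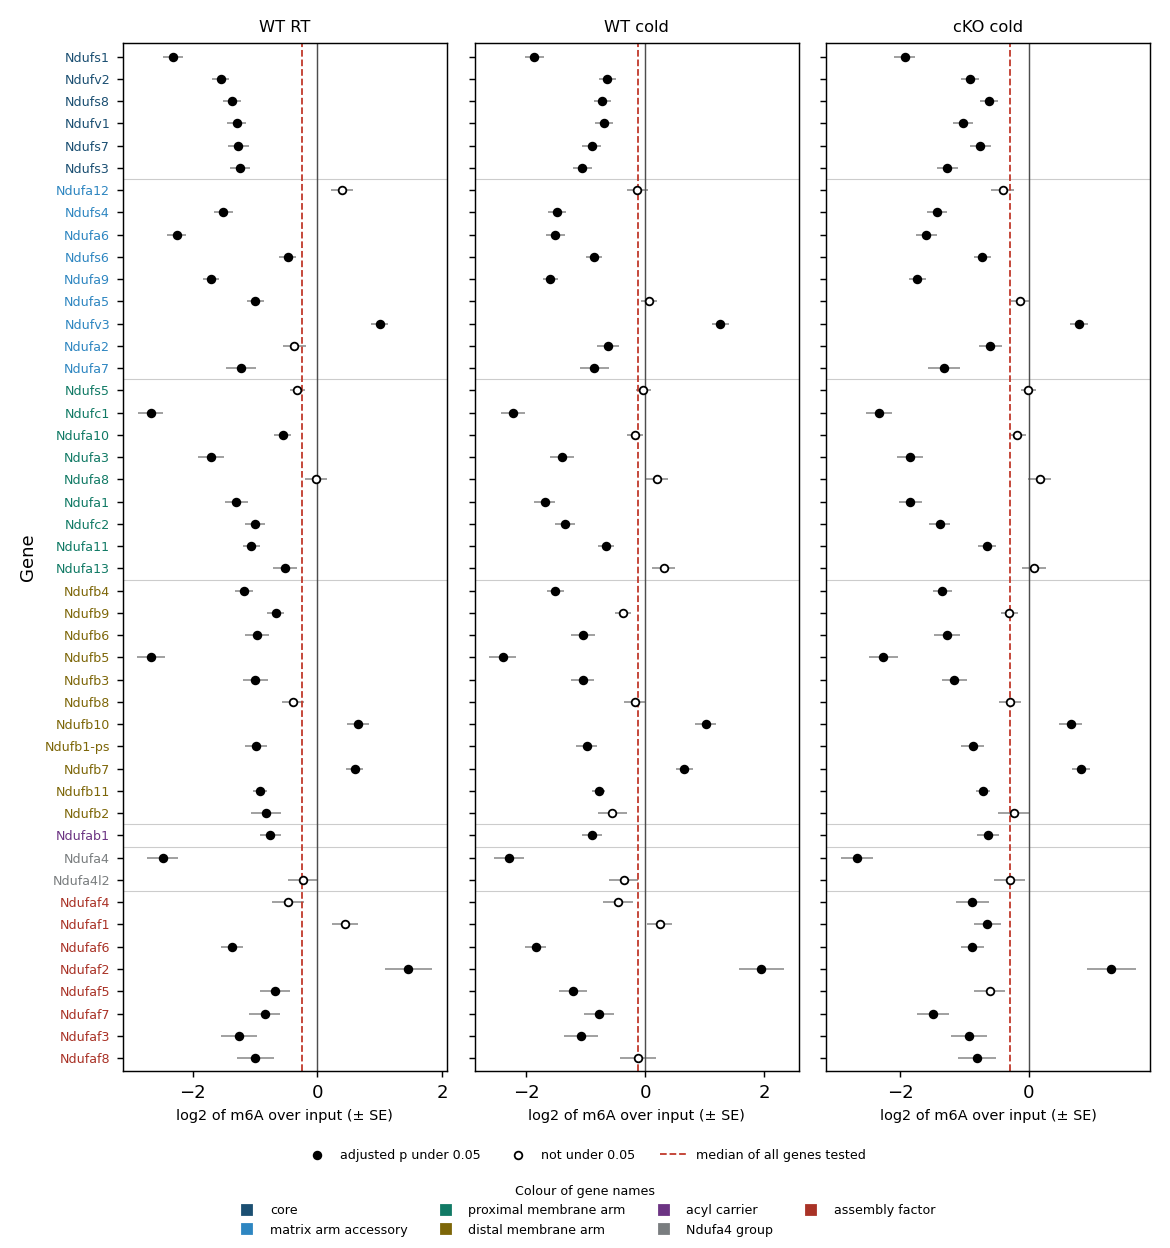
m6A over input for 46 of the 47 Nduf genes in WT RT, WT cold and cKO cold, as the log2 difference of RPKM + 1 with standard errors as bars and filled points for an adjusted p under 0.05. Most subunits lie left of the dashed line (the median of all genes), and Ndufv3, Ndufb7, Ndufb10 and Ndufaf2 lie right of 0 in all 3 panels.

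Levels in the m6A libraries followed the order of the inputs. In 35 of 37 subunits both WT cold m6A libraries lay above both WT RT m6A libraries, and in 35 both cKO cold m6A libraries lay below both WT cold ones, against 16.6% and 16.2% of all genes (37 and 37 subunits, 37.5% and 31.6% of all genes, with median-ratio scaling). The change of m6A over input itself was tested as an interaction of library kind and condition. Between WT RT and WT cold 0 of 37 subunits passed, among all genes of which 0.023% rose and 0.0383% fell (3 and 5 genes, with 1486 at an unadjusted p under 0.05), and the median change was 0.26 over the subunits and 0.11 over all genes. The highest was Ndufa5, a matrix arm subunit, whose m6A over input stood at -0.90 and -1.10 in the WT RT pairs and at 0.08 and 0.04 in the WT cold pairs (change 1.06 ± 0.19, adjusted p = 0.0965). Next among the core was Ndufv2, at -1.61 and -1.49 and at -0.76 and -0.51 (0.92 ± 0.20, adjusted p = 0.143). The lowest of the subunits was Ndufa12, at 0.43 and 0.37 and at -0.21 and -0.06 (-0.53 ± 0.25). The pairs of the 2 conditions did not overlap for these 3 genes. They were named for their extreme change, so this adds no support.

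With the pairs of m6A and input libraries as blocks, 3 subunits passed: Ndufa5 (adjusted p = 0.0316), Ndufv2 (adjusted p = 0.042) and Ndufa12 (adjusted p = 0.0416), the first pair up and the last down. Over the alternatives their adjusted p ran from 0.0316 to 0.446, 0.042 to 0.708 and 0.0416 to 0.941, and the block raised the calls over all genes from 3 higher and 5 lower to 222 and 48. Quantile scaling called Ndufa5 and Ndufv2, with 28 genes higher and 13 lower in all (2 and 6 with median-ratio scaling). In the other arms Ndufa13 was highest (0.82 ± 0.27) and Ndufa1 lowest (-0.40 ± 0.26) in the proximal arm, Ndufb10 highest (0.36 ± 0.25) and Ndufb4 lowest (-0.33 ± 0.20) in the distal arm. Ndufab1 stood at -0.14 ± 0.24, and the Ndufaf genes ran from Ndufaf5 (-0.54 ± 0.34) to Ndufaf8 (0.87 ± 0.42).

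Between WT cold and cKO cold 0 of 37 subunits changed in m6A over input, with 0% of all genes called in either direction by limma and 1311 genes at an unadjusted p under 0.05. The subunits' median was -0.04 and that of all genes -0.15. Ndufv3 was lowest, at 1.27 and 1.25 in the WT cold pairs and 0.72 and 0.84 in the cKO cold pairs (-0.48 ± 0.20, adjusted p = 0.445). Ndufb2 was highest (0.32 ± 0.35). The core subunits ran from Ndufv1 (-0.34 ± 0.22) to Ndufs7 (0.14 ± 0.23), the proximal arm from Ndufa3 (-0.46 ± 0.29) to Ndufs5 (0.02 ± 0.17), the matrix arm up to Ndufs6 (0.13 ± 0.19) and the distal arm down to Ndufb10 (-0.36 ± 0.25), with Ndufab1 at 0.27 ± 0.24. The Ndufaf genes ran from Ndufaf1 (-0.89 ± 0.30, adjusted p = 0.308) to Ndufaf6 (0.96 ± 0.25, adjusted p = 0.212). With the pairs as blocks 0 of the 47 passed as well, though calls over all genes rose to 8 higher and 397 lower. A p that misses the threshold does not show that the ratios were alike.

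Ribosome footprints on complex I mRNAs were lower in knockout than in wild-type fat in the cold. The 37 subunits summed to 23132.5 and 22346 RPKM in the WT cold footprint libraries and 13412 and 14580.2 in cKO cold, with both cKO cold sums below both WT cold sums. All 37 changes lay below 0, with a median of -0.71 against 0.42 over all genes, and 28 subunits did not overlap between the groups, against 8.2% of all genes that lay below in the same way (36 of 37 and 22% with median-ratio scaling). Of the 37, 9 fell past the threshold and 0 rose, among 12763 genes of which 1.54% fell and 5.61% rose. They were Ndufs1, Ndufv1 and Ndufv2 of the core, Ndufa5, Ndufa9 and Ndufs4 of the matrix arm, and Ndufb8, Ndufb11 and Ndufb1-ps of the distal arm.

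Ndufa9, a subunit related to short-chain dehydrogenases, had the lowest change, with footprints at 436 and 402 RPKM in WT cold against 147 and 159 in cKO cold (-1.45 ± 0.20, adjusted p = 0.0114). Ndufb8 stood at 1603 and 1568 RPKM in WT cold against 535 and 720.4 in cKO cold (-1.35 ± 0.26, adjusted p = 0.0265). Ndufv1 was lowest of the core, at 469 and 408 against 182 and 201 RPKM (-1.19 ± 0.23), followed by Ndufv2 (-1.17 ± 0.28), Ndufs1 (-0.90 ± 0.22), Ndufs8 (-0.73 ± 0.24), Ndufs3 (-0.61 ± 0.23) and Ndufs7 (-0.59 ± 0.24). In the proximal membrane arm 0 of 9 passed, with Ndufc2 lowest (-0.88 ± 0.24, adjusted p = 0.0599) and Ndufa1 highest at 1019 and 1231 against 1443 and 782 RPKM (-0.08 ± 0.34). Highest in the other arms were Ndufa2 (-0.02 ± 0.24) and Ndufb9 (-0.21 ± 0.28), and Ndufab1 stood at -0.65 ± 0.23.

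Ndufa4 of complex IV fell from 6952 and 12361 to 2835 and 3913 RPKM (-1.48 ± 0.35, adjusted p = 0.0435), while Ndufa4l2 stood at 24.5 and 6.02 and at 5.29 and 26.1 RPKM. No Ndufaf gene passed. Ndufaf4 stood at 57.0 and 34.3 RPKM in WT cold against 59.4 and 161 in cKO cold (1.13 ± 0.47, adjusted p = 0.147). Ndufaf8 was highest (2.03 ± 0.57, adjusted p = 0.0639) on low values, 3.10 and 0 RPKM against 8.91 and 5.87, and Ndufaf7 lowest (-0.41 ± 0.31). The others were Ndufaf3 (0.41 ± 0.25), Ndufaf1 (-0.10 ± 0.32), Ndufaf5 (-0.12 ± 0.32), Ndufaf6 (-0.30 ± 0.45) and Ndufaf2 (-0.35 ± 0.31). Of the 6 mt-Nd subunits 3 fell (mt-Nd2, mt-Nd3 and mt-Nd5), with a median over the 6 of -1.66, and of the 12 other assembly factors 1 fell, Aifm1 (-0.86 ± 0.20, adjusted p = 0.0429).

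None of the 9 calls was kept without each library in turn. The count was 0 without cKO cold footprint replicate 1, 1 (Ndufa9) without WT cold replicate 2, 4 without WT cold replicate 1 and 7 without cKO cold replicate 2, and the subunits' median ran from -0.55 to -0.85. Ndufa4 lost its call without either cKO cold library or WT cold replicate 2. A pseudocount of 0.1 RPKM or no filter on low values left 5 called, median-ratio scaling gave 23 and a fit of all 16 libraries 24. Median-ratio scaling moved the median of all genes to 0.02 and their calls from 716 higher and 196 lower to 120 and 355, quantile scaling to 137 and 287, and scaling to RPKM outside mitochondrial mRNAs to 383 and 219. Beige and brown markers summed to 8764 and 6603 RPKM in WT cold footprints and 544 and 817 in cKO cold, with 5 of 7 lower, and 5 of 9 tested macrophage markers were higher (2943 and 3539 against 7348 and 4089). The part of these shifts was not tested.

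**Figure D5:**
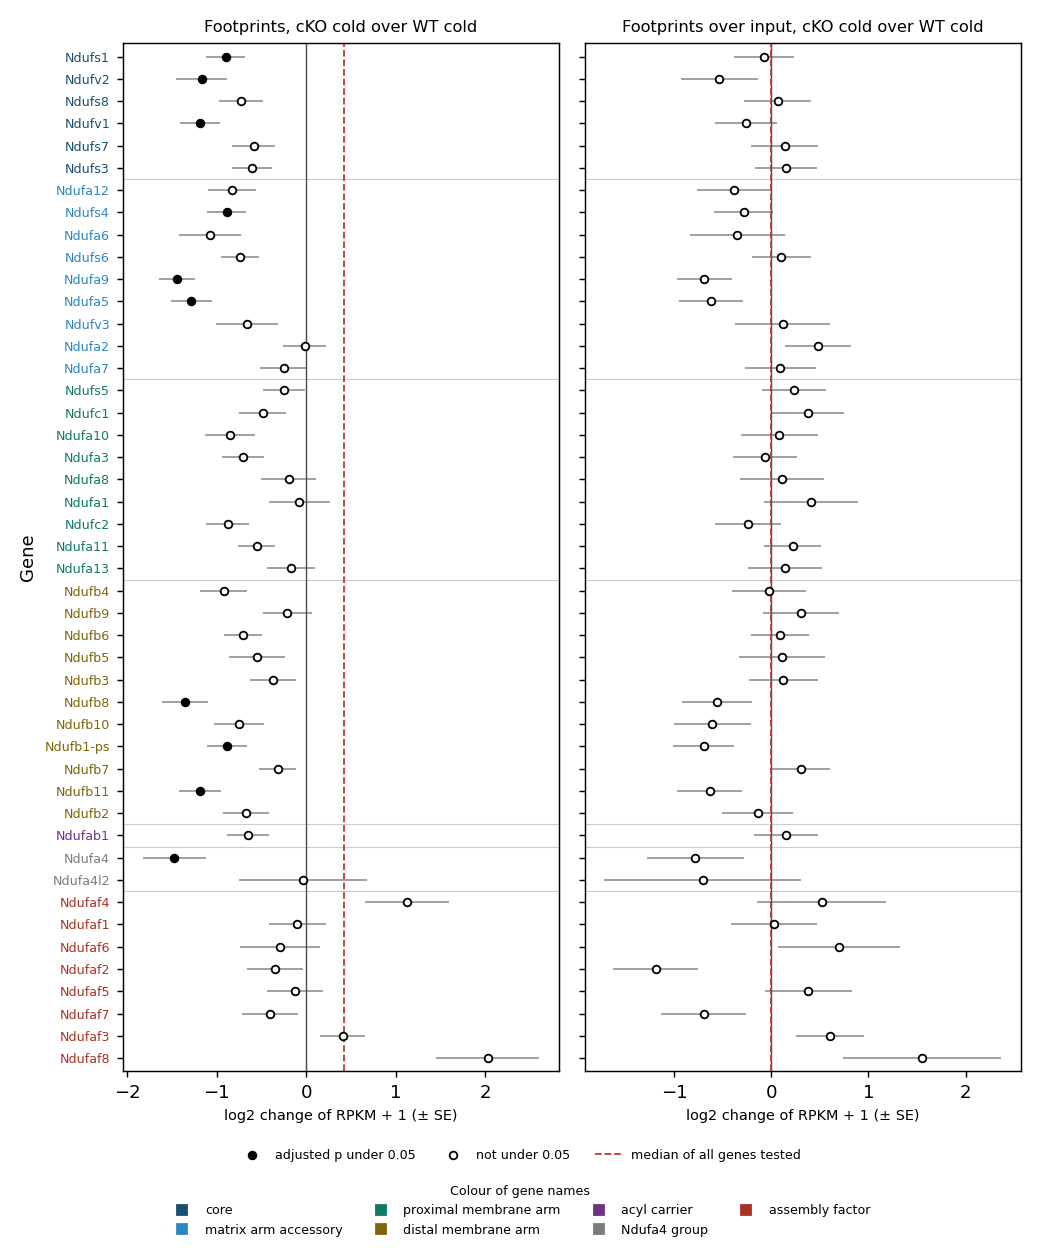
Change between WT cold and cKO cold of footprints (left) and of footprints over input (right) for 46 of the 47 Nduf genes, as log2 of RPKM + 1 with standard errors as bars and filled points for an adjusted p under 0.05. All subunits shown lie left of 0 in the left panel and on both sides of 0 in the right panel, where no gene passes.

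Footprints over input, the ratio used as translational efficiency, showed no called change for any Nduf gene between WT cold and cKO cold. With limma 0 of 37 subunits and 0% of all genes passed in either direction, with 459 genes at an unadjusted p under 0.05. The medians were 0.08 over the subunits and 0.00 over all genes, and 20 of 37 subunits lay above 0. They ran from Ndufb1-ps (-0.70 ± 0.31) and Ndufa9 (-0.69 ± 0.28) to Ndufa2 (0.48 ± 0.34). The core subunits ran from Ndufv2 (-0.53 ± 0.40) to Ndufs3 (0.15 ± 0.32), the proximal arm from Ndufc2 (-0.24 ± 0.34) to Ndufa1 (0.41 ± 0.48), and the distal arm up to Ndufb9 (0.31 ± 0.39), with Ndufab1 at 0.15 ± 0.33 and Ndufa4 at -0.79 ± 0.50. Ndufaf2 was lowest (-1.19 ± 0.44) and Ndufaf8 highest (1.55 ± 0.81) of the assembly factors. Standard errors of the subunits ran from 0.28 to 0.49, and changes of that size were not detectable with 2 libraries a group.

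Input and footprint libraries of the same condition differed in the cell markers they held, though the sizes of their RPKM sums cannot be compared across the 2 length scales. T and B cell markers summed to 465 and 331 RPKM in the WT cold footprints, with none of the 10 at 0, while 4 and 6 of them were at 0 in the WT cold inputs. Skeletal muscle markers summed to 360.1 RPKM in cKO cold footprint replicate 1 and 7.56 in replicate 2, and to 4.16 and 175 in the cKO cold inputs of those numbers. The part of these differences in the ratio was not tested.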

How the data were processed

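Input RNA, m6A-captured RNA and ribosome footprints were measured in 16 libraries. The authors deposited RPKM values per gene. The submitters' processing notes name HISAT2 and mm10 without versions, and the counter and annotation are not given in the sources used here. The protocols in the labels state the TruSeq Small RNA kit, capture with an anti-m6A antibody and ultracentrifugation for footprints. Whole reads behind the RPKM were recovered to obtain depth and length. Footprint RPKM are on another length scale than input RPKM, so levels of the Nduf genes were not compared between them. Marker sums are given for both kinds of library, but their sizes are not comparable between the kinds. Symbols were matched for 17871 of 17883 genes, and 25 symbols turned into dates were restored.

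Log2(RPKM + 1) was fitted with limma 3.58.1 (R 4.3.3, trend, two-sided) over genes that reached 1 RPKM in 2 or more libraries of the fit, separately for the inputs (3 residual degrees of freedom), input with m6A (6) and cold input with footprints (4). Errors after ± are standard errors, with 2 libraries a group. Benjamini-Hochberg adjusted p-values cover every gene of the fit, and 0.05 was the threshold. Changes of a ratio are interaction terms. Shares of all genes without overlap between 2 groups cover genes that reached 1 RPKM in 2 or more libraries of those groups. These were 11258 to 12565 genes, fewer than in the fits. The script was checked on simulated data. Fold changes on this scale understate changes of low genes. Genes named by rule were the core subunits, the Ndufaf genes, Ndufa4, Ndufa4l2, Ndufab1, Mettl3, and the highest and lowest of each role in each comparison. Other members given with values, such as Ndufs4 in the cold, Ndufa12 in the knockout and Ndufb7 in m6A, were chosen after their values were seen. One member enters the counts and sums but is not reported here by itself. The members, gene lists and motifs were chosen with earlier results of these data known. Alternatives were other scalings, a pseudocount of 0.1, no filter, other sets of libraries, a replicate block and leaving out each library.

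Labels number the replicates in each group. Over 8464 genes, the deviations of input and m6A libraries with the same number correlated at 0.305 in WT RT, 0.656 in WT cold and 0.484 in cKO cold. Those of input and footprints correlated at 0.333 and 0.337 in the cold groups. On this basis the numbers were taken to pair libraries of 1 condition, as a property of the data. Muscle markers went against this pairing for cKO cold input and footprints. They summed to 4.16 and 175 RPKM in input replicates 1 and 2, and to 360.1 and 7.56 in footprint replicates 1 and 2. Across conditions the correlations of inputs were near 0 (0.066 for WT RT and WT cold). Plots used matplotlib 3.10.9 in Python 3.11.15.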

Additional observations from a re-analysis of the deposited data

How the results depend on the processing

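The count of called subunits (31 in the cold, 26 in the knockout, 6 for cKO cold over WT RT, 9 for footprints) depended on the scaling and on single libraries. Leaving out 1 library gave 18 to 29 subunits in the cold, 2 to 11 for cKO cold over WT RT and 0 to 7 for footprints. For cKO cold over WT RT, median-ratio scaling gave 16 higher and scaling outside mitochondrial mRNAs 13 higher, with 0 lower in both. Quantile scaling gave 10 higher and 1 lower, a fit of only these groups 8 and 2, and all 16 libraries in 1 fit 4 and 1. For footprints, median-ratio scaling gave 23, a pseudocount of 0.1 gave 5, no filter 5 and all 16 libraries in 1 fit 24. For the cold change of m6A over input, where 0 passed, quantile scaling gave 2 and the replicate block on pairs 3. With the replicate number as a block, 31 subunits passed in the cold, 24 in the knockout, 7 for cKO cold over WT RT and 11 for footprints, and with the pairs as blocks 35, 29 and 30 passed for m6A over input in WT RT, WT cold and cKO cold. Ndufa13 changed from -0.10 to 0.63 in the cold with median-ratio scaling. The cause of these shifts was not tested. Groups of 2 libraries limit the precision of every value.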
